A study of Rattus norvegicus with 304 samples.

Results

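Nqo1 and Nfe2l2 are 2 of the 50 genes whose fold change after the dioxin TCDD was measured by real-time PCR in rat liver on either of 2 instruments. They were chosen by name, as every row of the fold change tables that carries the symbol Nqo1 or Nfe2l2, and both were present on both instruments. Nqo1 was read with assay Rn00566528_m1 and Nfe2l2 with assay Rn00477784_m1. The animals were male rats aged 10 to 12 weeks of the strain Han/Wistar, which the series describes as resistant to TCDD, or Long-Evans, described as sensitive. Each had received TCDD or the corn oil vehicle by oral gavage, and the controls differed from the treated animals in the TCDD alone, as far as the labels say.

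In the dose arm livers were taken at 19 h after 0.001, 0.01, 0.1, 1, 10, 100, 1000 or 3000 µg/kg in Han/Wistar and after 0.001, 0.01, 0.1, 1, 10, 50, 100 or 1000 µg/kg in Long-Evans. In the time arm livers were taken at 1.5, 3, 6, 10, 19, 96, 240 and 384 h after 100 µg/kg in Han/Wistar and at 3, 6, 10, 19, 96 and 240 h in Long-Evans. Corn oil groups stood at 1.5, 19, 96, 240 and 384 h in Han/Wistar and at 19, 96 and 240 h in Long-Evans. Measurements came from the OpenArray, which amplifies in preloaded nanolitre wells (150 samples, 49 genes), and, with all 150 sample titles repeated, from the 7900HT, a standard plate-based PCR machine (154 samples, 39 genes). The authors' deposited tables give 1 value per gene and group of 3 to 7 samples, the log2 fold change relative to the corn oil group at 19 h within the strain, so that group is 0 by construction. Values per animal were not used here and the depth is unknown, so the spread below is that between corn oil groups and every test takes a group as 1 unit. Of 7 hepatocyte markers only Mug1 was on the OpenArray, and no marker of another liver cell type was on either panel, so the labelled tissue was not checked against its markers.

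Nqo1 encodes NAD(P)H quinone dehydrogenase 1, which reduces quinones to hydroquinones and so spares the cell their redox cycling. Nfe2l2 encodes NRF2, the transcription factor that binds antioxidant response elements (AREs) in the genes of antioxidant defence and conjugation, Nqo1 among them. In unstressed cells NRF2 protein is held low by KEAP1-directed degradation, so much of its control is not visible in its mRNA. TCDD binds the aryl hydrocarbon receptor (AHR), which pairs with ARNT on xenobiotic response elements. Nqo1 is a classical gene of the AHR battery that carries both kinds of element in its regulatory region, and Nfe2l2 has itself been described as an AHR target.

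Since both genes moved with TCDD, the 250 bases before their RefSeq start sites (GRCr8) were searched on both strands for the AHR core GCGTG and for the ARE core TGACNNNGC. The Nqo1 window is chr19:52220268-52220517 and the Nfe2l2 window chr3:81029000-81029249, each on the minus strand and given 5′ to 3′ of the gene, with matches in capitals.
Nqo1: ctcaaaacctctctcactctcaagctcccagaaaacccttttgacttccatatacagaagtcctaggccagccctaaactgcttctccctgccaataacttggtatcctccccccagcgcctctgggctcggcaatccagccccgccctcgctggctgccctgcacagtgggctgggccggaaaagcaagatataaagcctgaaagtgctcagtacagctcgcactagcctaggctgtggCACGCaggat
Nfe2l2: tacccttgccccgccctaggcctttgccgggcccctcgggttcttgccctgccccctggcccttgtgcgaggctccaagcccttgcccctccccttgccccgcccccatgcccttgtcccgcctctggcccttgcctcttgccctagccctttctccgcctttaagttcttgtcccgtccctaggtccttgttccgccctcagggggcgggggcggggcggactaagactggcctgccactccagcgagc
In the Nqo1 window 1 AHR core was found, on the strand opposite to the gene, at bases -10 to -6 counted back from the start site, and no ARE core. In the Nfe2l2 window, which is richer in GC (69.2% against 56.4%), neither core was found. Of 33469 RefSeq promoter windows of the same length, 25.9% held the AHR core and 10.1% the ARE core, so the match in Nqo1 is a common one and is given only as a description. With 1 match in all, no overlap between the motifs arose, and elements outside these 250 bases were not searched.

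The dose arm asks from which dose the genes answer at 19 h. On the OpenArray both genes rose with dose in both strains, Nqo1 further than Nfe2l2. At 100 µg/kg the authors' deposited table puts Nqo1 at 13.7-fold (Han/Wistar) and 11.1-fold (Long-Evans) of corn oil, and Nfe2l2 at 2.03-fold and 3.58-fold. In whole liver, more RNA per cell and more cells of a type that expresses the gene cannot be told apart.

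In Han/Wistar the authors' deposited table gives Nqo1 values of 0.22, -0.47 and 0.53 log2 units for 0.001, 0.01 and 0.1 µg/kg. For 1, 10, 100, 1000 and 3000 µg/kg the authors' deposited table gives 2.52, 2.71, 3.78, 3.29 and 3.49. The 5 corn oil groups ranged from -0.27 to 0.20 (SD 0.18). The widest step, 1.99 log2 units, lay between 0.1 and 1 µg/kg, and the levels at 1000, 3000 and 100 µg/kg followed each other by less than the corn oil range of 0.47. From 0.1 µg/kg on, every dose lay above the highest corn oil group, which held from 0.1 µg/kg or a lower dose for 20.4% of all OpenArray genes in this strain. At 100 µg/kg Nqo1 ranked 7 of 49 genes.

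In Long-Evans the authors' deposited table gives Nqo1 values of 0.75, 0.24 and 1.26 log2 units for 0.001, 0.01 and 0.1 µg/kg. For 1, 10, 50, 100 and 1000 µg/kg the authors' deposited table gives 2.20, 3.06, 3.49, 3.47 and 3.44, while the 3 corn oil groups ranged from -0.20 to 0. All 8 doses lay above that range, which was the case for 10.2% of the genes in this strain. The top of the Nqo1 range was the 19 h group, 0 by construction, so any value above 0 lay above it. The order of levels was not that of the doses at the bottom, where 0.001 µg/kg stood above 0.01 µg/kg by 0.52. At the top, 50, 100 and 1000 µg/kg were 0.03 and 0.02 log2 units apart in the order of levels, against a corn oil range of 0.20.

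Nfe2l2 answered over the same doses with smaller values. Its Han/Wistar values from 0.001 to 3000 µg/kg were -0.15, -0.08, 0.28, 0.62, 0.94, 1.02, 1.55 and 1.20 log2 units, per the authors' deposited table, an increase at each dose up to 1000 µg/kg. Its Long-Evans values from 0.001 to 1000 µg/kg were 0.50, 0.33, 0.32, 1.12, 1.36, 1.66, 1.84 and 1.67, per the authors' deposited table. Corn oil groups were less tight for it than for Nqo1: they ranged from -1.16 to 0 in Han/Wistar (SD 0.47), where the group at 1.5 h was the low one, and from -0.17 to 0.19 in Long-Evans. In Han/Wistar no step between neighbouring levels was wider than the corn oil range, and in Long-Evans only the step of 0.63 up to 1 µg/kg was. From 0.1 µg/kg (Han/Wistar) or 0.001 µg/kg (Long-Evans) on, every dose of both genes lay above the highest corn oil group. For Nfe2l2 in Han/Wistar and Nqo1 in Long-Evans that group was the one at 19 h, so the bound was 0 by construction. In Han/Wistar Nqo1 also lay outside its corn oil range at the 2 lower doses, just above it at 0.001 µg/kg and below it at 0.01 µg/kg.

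**Figure D1:**
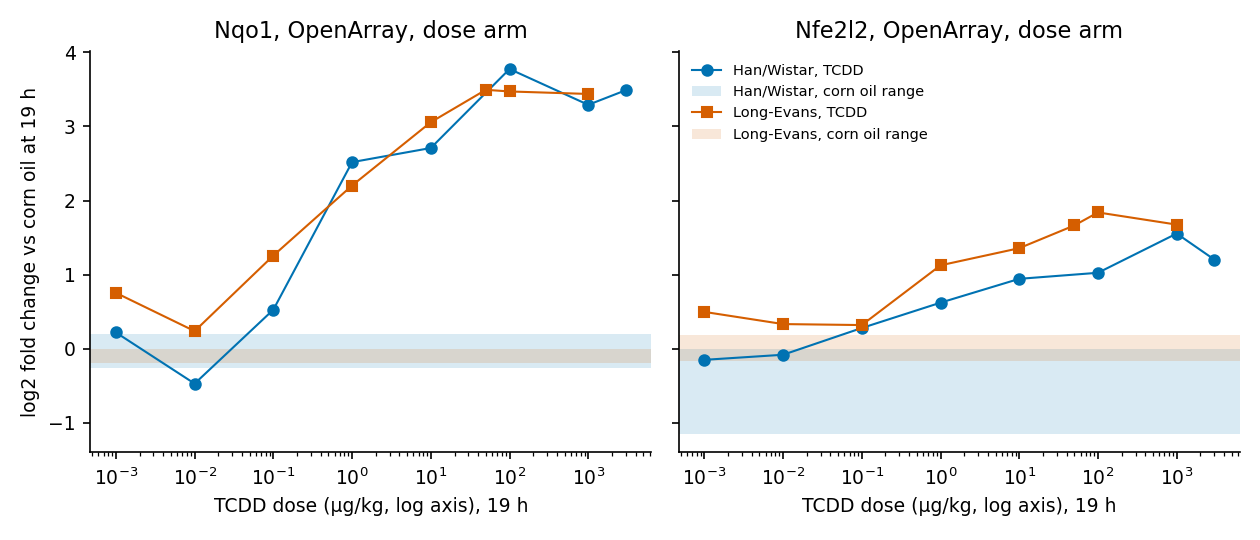
Log2 fold change of Nqo1 (left) and Nfe2l2 (right) on the OpenArray at 19 h against TCDD dose in µg/kg on a log axis, 1 point per group, with the range of each strain's corn oil groups as a band. Nqo1 levels off above 3 log2 units in both strains, while Nfe2l2 peaks at 1.55 (Han/Wistar) and 1.84 (Long-Evans).

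With 2-fold as the bound instead, Nqo1 passed it from 1 µg/kg in Han/Wistar and from 0.1 µg/kg in Long-Evans, and Nfe2l2 from 100 µg/kg and from 1 µg/kg. Over the panel 32.7% of Han/Wistar genes and 38.8% of Long-Evans genes passed this bound from some dose on. Interpolated between neighbouring doses, the dose that gave 2-fold was 0.173 µg/kg (Han/Wistar) and 0.0560 µg/kg (Long-Evans) for Nqo1, and 50.8 and 0.700 µg/kg for Nfe2l2. The Nfe2l2 curve is shallow near 1 log2 unit, since the authors' deposited table has it at 0.94 after 10 µg/kg in Han/Wistar.

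Each trend was tested as Spearman's rho between log10 dose and log2 value over 8 groups (two-sided exact permutation, Benjamini-Hochberg over the 49 genes of a strain). In Han/Wistar Nqo1 had a rho of 0.90 (exact permutation p = 0.00456, adjusted 0.0160) and a Pearson r of 0.92 (exact permutation p = 0.00176), which was 0.92 when the 2 doses farthest from the middle were left out. Nfe2l2 had a rho of 0.98 there (exact permutation p = 0.000397, adjusted 0.00648) and an r of 0.97 (exact permutation p = 0.000248), which was 0.99 without those 2 doses. In Long-Evans both had a rho of 0.88 (exact permutation p = 0.00724, adjusted 0.0127), with an r of 0.95 for Nqo1 (exact permutation p = 0.000744) and 0.92 for Nfe2l2 (exact permutation p = 0.00223). Without the 2 farthest doses these were 0.93 and 0.91. A rise with dose was called for 38.8% of all Han/Wistar genes and 53.1% of all Long-Evans genes, so that the rise of these 2 genes was shared by much of the panel.

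Some of these calls turned on scaling or on 1 dose group. After centring of each group on its panel mean, Nqo1 was still called (rho 0.88 and 0.95 in the respective strains), whereas Nfe2l2 in Long-Evans had a rho of 0.12 (adjusted exact permutation p = 0.793). Centred on the panel median instead, Nfe2l2 in Long-Evans was still called, with values of 0.46, 0.50 and 0.29 from 0.001 to 0.1 µg/kg. At 1, 10, 50, 100 and 1000 µg/kg they were 0.93, 0.99, 1.08, 1.26 and 1.14. Without 0.1 or 1 µg/kg, Nqo1 in Han/Wistar missed the threshold (adjusted exact permutation p = 0.0556 and 0.0778), and in Long-Evans it did so without 0.1, 1 or 10 µg/kg and Nfe2l2 without 1 or 10 µg/kg (adjusted exact permutation p = 0.0507 to 0.0557), with rho at 0.82 or more.

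The time arm asks how soon after 100 µg/kg the genes answer and whether the answer lasts. Nqo1 on the OpenArray was at its corn oil level at 1.5 h, a time sampled in Han/Wistar only. It was raised there by 3 h in both strains and stayed high to the last time sampled. Nfe2l2 on the OpenArray also stood higher from 3 h on, and in Long-Evans both genes were at their highest at 240 h. The time course values and tests that follow are those of the OpenArray unless the other instrument is named. That instrument did not give the same course, and its values are described further below.

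In Han/Wistar, the authors' deposited table for the OpenArray gives Nqo1 as 0.09 log2 units at 1.5 h, then 2.69 (3 h) and 4.12 (6 h). From 10 to 384 h it stood at 3.96, 3.78, 3.51, 4.29 and 3.98 in the authors' deposited table, so that the levels from 6 h on lay between 3.51 and 4.29. The corn oil groups at 1.5, 19, 96, 240 and 384 h stood at -0.12, 0, 0.20, -0.27 and 0.09 in the authors' deposited table. From 6 h on no neighbouring levels were further apart than the corn oil range of 0.47, in no order of time. The 7 groups from 3 h on lay above all corn oil groups, while the group at 1.5 h lay among them.

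In Long-Evans the authors' deposited table gives Nqo1 as 2.53, 3.49, 3.83 and 3.47 for 3, 6, 10 and 19 h. For 96 and 240 h the authors' deposited table gives 4.79 and 5.44, which are 27.6-fold and 43.5-fold. The last value exceeded that at 96 h by 0.65 and that at 96 h exceeded the level at 10 h by 0.96, both more than the corn oil range of 0.20. In Long-Evans, unlike Han/Wistar, the order of levels thus ended with the 2 latest times.

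For Nfe2l2 in Han/Wistar the authors' deposited table gives -0.27, 1.18, 0.82, 1.08 and 1.02 log2 units from 1.5 to 19 h. For 96, 240 and 384 h the authors' deposited table gives 1.71, 1.55 and 1.65, while its corn oil values are -1.16, 0, -0.31, -0.39 and -0.02. Its Long-Evans values from 3 to 240 h were 1.56, 1.29, 1.22, 1.84, 2.64 and 2.87, with corn oil at 0, -0.17 and 0.19, per the authors' deposited table. The Long-Evans curve dips from 3 to 10 h and then climbs, and of its neighbouring levels only 19 h and 96 h were further apart (0.80) than the corn oil range of 0.35.

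**Figure D2:**
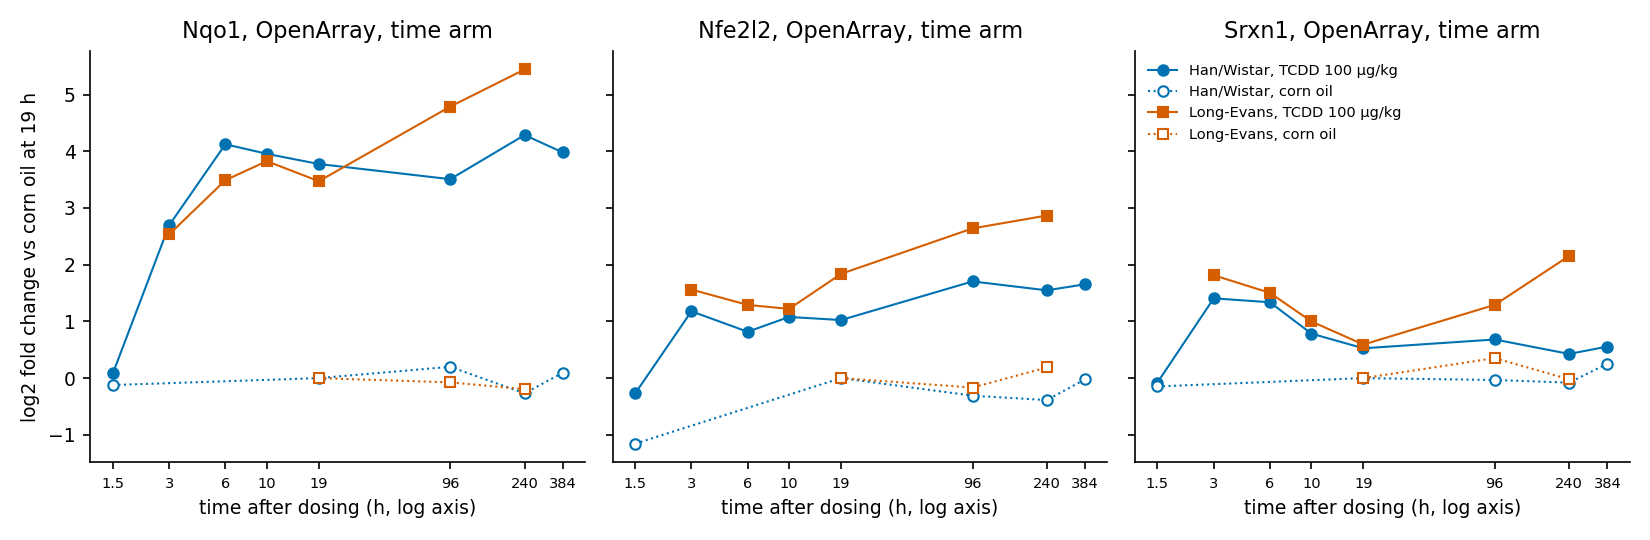
Log2 fold change on the OpenArray against hours after 100 µg/kg TCDD (filled) or corn oil (open) on a log axis for Nqo1, Nfe2l2 and Srxn1, 1 point per group, circles for Han/Wistar and squares for Long-Evans. Nqo1 is near 0 at 1.5 h and above 2.5 log2 units from 3 h on, and Srxn1 is lower at 19 h than at 3 h in both strains, at 0.53 against 1.41 and 0.59 against 1.81.

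Set against corn oil of the same time, the OpenArray picture at 1.5 h differs between the genes. Nfe2l2 stood 0.89 log2 units above its own corn oil group there, the sixth largest difference of 48 genes (its corn oil value was the low one), and Nqo1 stood 0.21 above its own, rank 30 (median over the genes 0.30). At 96, 240 and 384 h the differences in Han/Wistar were 3.31, 4.55 and 3.89 for Nqo1 and 2.01, 1.94 and 1.68 for Nfe2l2. In Long-Evans they were 4.86 and 5.64 for Nqo1 and 2.81 and 2.68 for Nfe2l2 at 96 and 240 h, while the median gene stood at 0.94 and 1.09. Nqo1 was among the 7 highest genes at each of these 5 later points, and Nfe2l2 ranked 12 to 14.

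The time courses were tested as the mean of the TCDD groups minus the mean of the corn oil groups. In Han/Wistar on the OpenArray (8 against 5 groups) this was 3.32 log2 units for Nqo1 (adjusted exact permutation p = 0.0104) and 1.47 for Nfe2l2 (adjusted exact permutation p = 0.0127). In Long-Evans (6 against 3 groups) it was 4.02 for Nqo1 and 1.90 for Nfe2l2 (adjusted exact permutation p = 0.0365 for each, unadjusted 0.0119, the smallest this design allows). A higher mean was called for 53.1% of Han/Wistar genes and 30.6% of Long-Evans genes. For both genes every TCDD time lay above every corn oil group in Long-Evans, as for 51% of the genes there, and for neither in Han/Wistar, where 12.2% of the genes did so.

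The Long-Evans calls left little room: without any 1 corn oil group, or without the TCDD group at 6, 10, 19 or 96 h, the adjusted exact permutation p was 0.0515 to 0.109 for both genes, at differences of 3.84 to 4.11 for Nqo1 and 1.75 to 2.03 for Nfe2l2. Without 1 corn oil group only 28 splits remain, and the smallest unadjusted exact permutation p is 0.0357. Those losses therefore do not show that the calls hang on a particular corn oil group. Without 1 TCDD group, all the remaining ones still lay above all corn oil groups for both genes. The losses without a TCDD group thus do not show that the calls hang on a particular time either. Centred on the mean of each group, Nfe2l2 was no longer called in either strain (Han/Wistar 0.44, adjusted exact permutation p = 0.106; Long-Evans 0.78, p = 0.0707), and Nqo1 was, at 2.29 and 2.90. Panel medians of the OpenArray groups ran from -0.35 to 1.00 log2 units. Centred on these medians instead, Nfe2l2 was still called in both strains. In Long-Evans it then stood at 0.69 to 1.90 after 100 µg/kg and at -0.21 to 0.21 in corn oil. So centred in Han/Wistar, it stood at 0.49 to 1.38 from 3 h on and at -0.19 at 1.5 h, with corn oil at -0.81 to 0.28. The part of the panel shift in the Nfe2l2 values was not tested.

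The comparison of strains asks whether sensitive and resistant rats differ in these responses. On the OpenArray, Nfe2l2 stood higher in Long-Evans than in Han/Wistar at all 7 shared doses and all 6 shared TCDD times, and Nqo1 at the 3 lowest doses, at 10 and 1000 µg/kg and at the 2 latest times, but no test of a strain difference passed. The median gap over the genes was also above 0 at each shared dose but 0.1 µg/kg (-0.04). It was so too at each shared TCDD time but 6 h (-0.09). In these doses the rank of the Nfe2l2 gap ran from 3 of 48 (0.001 µg/kg) to 21 of 48 (0.1 µg/kg). How many genes kept to 1 side was not counted. On the 7900HT neither gene kept to 1 side. These values share each strain's own 19 h control, so an offset in that control would move all of them together.

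For Nqo1 on the OpenArray, Long-Evans minus Han/Wistar was 0.54, 0.71 and 0.73 log2 units at 0.001, 0.01 and 0.1 µg/kg, the seventh, first and second largest of 48 genes. At 1, 10, 100 and 1000 µg/kg it was -0.32, 0.35, -0.30 and 0.15 (ranks 42, 13, 42 and 17 of 49), so that neither strain was higher throughout from 1 µg/kg on. Across time it was -0.16, -0.63 and -0.13 at 3, 6 and 10 h (ranks 39, 45 and 34 of 49). At 96 and 240 h it was 1.28 and 1.16 (ranks 7 and 12), where the median gap over the genes was 0.31 and 0.55. Relative to each strain's own corn oil of the same time, the late gaps were 1.55 and 1.08.

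For Nfe2l2 on the OpenArray the gap ran from 0.04 at 0.1 µg/kg to 0.81 at 100 µg/kg in the dose arm. At 96 and 240 h it was 0.93 and 1.32, and relative to own corn oil 0.79 and 0.74, since the corn oil groups at 240 h were themselves 0.58 apart. The OpenArray gap in Nfe2l2 thus stood on the same side at low and high doses, while that in Nqo1 did not.

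On the 7900HT the same differences were wider at each of these doses and changed sign in both arms. From 0.001 to 1000 µg/kg they were 7.70, 3.05, -0.76, -0.51, 4.58, -5.34 and 3.98 log2 units for Nqo1 and 4.27, 0.92, -2.63, 2.08, 6.39, -1.66 and 6.40 for Nfe2l2. At 3, 6, 10, 96 and 240 h they were -4.58, -4.02, 0.73, 0.34 and 1.15 for Nfe2l2. Relative to own corn oil at 96 and 240 h they were -0.03 and 0.38 for Nqo1 and -0.93 and 0.13 for Nfe2l2, against 1.55 and 1.08 for Nqo1 on the OpenArray.

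On the OpenArray the gap of Nqo1 against log10 dose had a rho of -0.61 over 7 doses (exact permutation p = 0.167, adjusted 0.471), and that of Nfe2l2 -0.14 (exact permutation p = 0.783, adjusted 0.916). Over time, the strain difference in response was 0.27 log2 units for Nqo1 (exact permutation p = 0.702, adjusted 0.839) and 0.44 for Nfe2l2 (exact permutation p = 0.179, adjusted 0.528). By this exact permutation test with Benjamini-Hochberg adjustment 0 of 48 genes were called for dose and 0 of 49 for time, and 10.4% and 12.2% had an unadjusted p under 0.05. These tests do not show that the strains respond alike.

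Set side by side, Nqo1 stood above Nfe2l2 in 26 of 28 TCDD groups on the OpenArray and in 17 of 28 on the 7900HT (10 of 15 in Han/Wistar, 7 of 13 in Long-Evans). On the OpenArray the 2 profiles had a Pearson r of 0.91 over 19 Han/Wistar groups and 0.95 over 15 Long-Evans groups, and 0.90 over all 34 (Spearman's rho 0.83), as a description, since all groups of a strain share 1 control and the dose axis. At 1.5 h in Han/Wistar neither was above 0.09 in the authors' deposited table. Against corn oil of that time, Nfe2l2 stood 0.89 higher, from a low corn oil value, and Nqo1 0.21 higher. At 3 h both stood above all corn oil groups, and whether 1 gene moved first was not tested.

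**Figure D3:**
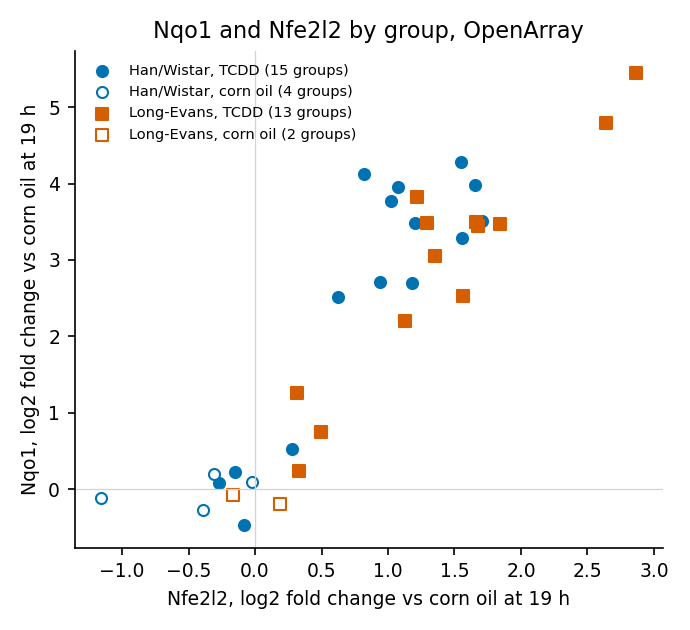
Nqo1 against Nfe2l2, log2 fold change on the OpenArray, 1 point per group (corn oil at 19 h left out), filled for TCDD and open for corn oil, circles for Han/Wistar and squares for Long-Evans. The 2 Long-Evans groups at 96 and 240 h stand apart at the top right, at 4.79 and 5.44 for Nqo1.

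The genes whose profiles were most like that of Nqo1 over those 34 groups were Ccbl1, a cysteine conjugate beta-lyase now called Kyat1 (r 0.96), Mawbp, now called Pbld1 (r 0.93), and Ube4b, a ubiquitin chain elongation factor (r 0.93), followed by Nfe2l2 itself. For Nfe2l2 they were Ube4b (r 0.93), Ccbl1 (r 0.92) and Nqo1 (r 0.90). By Spearman's rho instead, Nfe2l2 ranked 9 for Nqo1 and Nqo1 ranked 15 for Nfe2l2. After 100 µg/kg for 19 h the authors' deposited table gives Ccbl1 as 1.56 log2 units (Han/Wistar) and 2.15 (Long-Evans), between Nfe2l2 and Nqo1 in both strains. With each group centred on its median, the likeness of Mawbp to Nqo1 was 0.73.

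Of a list of 34 NRF2 target genes, 4 were on the OpenArray: Nqo1, Srxn1, Ugt1a1 and Aldh3a1. With dose, 3 of the 4 rose and Ugt1a1 fell in both strains, beside rises called for 38.8% and falls for 20.4% of Han/Wistar genes, and 53.1% and 26.5% of Long-Evans genes. Over time 3 of the 4 were called higher in Han/Wistar (Nqo1, Srxn1 and Aldh3a1) and 2 in Long-Evans (Nqo1 and Aldh3a1), beside 53.1% and 30.6% of all genes. The 4 had a median rho of 0.88 and 0.90 in these strains, beside 0.64 and 0.79 over all genes. Ugt1a1 and Aldh3a1, like Nqo1, are also genes of the AHR battery, so Srxn1 was the only NRF2 target measured that is not on that list.

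Srxn1, the sulfiredoxin that repairs overoxidised peroxiredoxins, had small values 19 h after 100 µg/kg, which the authors' deposited table gives as 0.53 (Han/Wistar) and 0.59 (Long-Evans). It rose with dose (rho 0.95 and 0.93, adjusted exact permutation p = 0.00799 and 0.00684). Its time course had another shape than that of Nqo1, with values lower at 19 h than at 3 h in both strains (3 h was the first time sampled in Long-Evans). From 1.5 to 384 h its Han/Wistar values were -0.08, 1.41, 1.34, 0.78, 0.53, 0.68, 0.43 and 0.56, per the authors' deposited table. From 3 to 240 h its Long-Evans values were 1.81, 1.50, 1.00, 0.59, 1.29 and 2.15, per the authors' deposited table. The late climb in Long-Evans was thus present in Nqo1, Nfe2l2 and Srxn1, after a lower stretch that ended at 10 h for Nfe2l2 and at 19 h for Srxn1. The panel median climbed there too, from 0.58 at 19 h to 1.00 at 96 h and 0.96 at 240 h. Above that median Srxn1 stood by 0.02, 0.29 and 1.19 at these times, Nfe2l2 by 1.26, 1.64 and 1.90, and Nqo1 by 2.90, 3.78 and 4.48. The mean difference of Srxn1 over time was 0.71 in Han/Wistar (called, adjusted exact permutation p = 0.0254). For Long-Evans it was 1.28, which missed the threshold (adjusted exact permutation p = 0.0556).

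Aldh3a1, an aldehyde dehydrogenase, had far wider values, which the authors' deposited table gives as 10.54 (Han/Wistar) and 9.64 (Long-Evans) for 100 µg/kg at 19 h, but its Han/Wistar corn oil groups also ran from -3.54 to 2.62. Ugt1a1, the bilirubin glucuronosyltransferase, fell with dose (Han/Wistar rho -0.88, Long-Evans rho -0.83, adjusted exact permutation p = 0.0187 and 0.0235). For 100 µg/kg the authors' deposited table has it at -1.09 and -0.89. Of 10 genes listed for control of NRF2, Nfe2l2 was the only one measured, so KEAP1 and the small MAF partners were not analysed here. Of 22 genes of the AHR battery, 12 were measured. With dose 6 rose and 3 fell in Han/Wistar, and 8 rose and 3 fell in Long-Evans, Nqo1 and Nfe2l2 among the risers each time. Over all genes 38.8% rose and 20.4% fell in Han/Wistar, and 53.1% rose and 26.5% fell in Long-Evans.

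On the 7900HT the same 2 genes gave another picture, with wide swings between neighbouring doses and between corn oil groups. The corn oil SD was 2.34 log2 units for Nqo1 and 2.71 for Nfe2l2 in Han/Wistar, against 0.18 and 0.47 on the OpenArray, and 1.05 and 0.62 in Long-Evans. For Nqo1 in Han/Wistar the corn oil groups at 1.5, 19, 96, 240 and 384 h stood at 2.62, 0, -2.38, -2.79 and -2.65 in the authors' deposited table. For Nfe2l2 they stood at 4.33, 0, -2.32, -2.11 and -1.08, again per the authors' deposited table. In Han/Wistar no neighbouring levels of either gene, in either arm, were further apart than their corn oil range.

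From 0.001 to 3000 µg/kg in Han/Wistar, Nqo1 stood at -3.78, -3.56, 0.74, 1.06, -0.18, 3.41, 0.75 and 3.94 on the 7900HT in the authors' deposited table. Nfe2l2 stood at -1.97, -1.03, 2.53, -1.86, -1.05, 1.13, -0.76 and 3.24 over the same doses in the authors' deposited table. For Nqo1 the highest doses are mostly the high ones, while for Nfe2l2 high and low values alternate. The rho of Nqo1 was 0.83 (exact permutation p = 0.0154, adjusted 0.136) with an r of 0.85 (exact permutation p = 0.00890), or 0.67 without the 2 farthest doses. That of Nfe2l2 was 0.62 (exact permutation p = 0.115, adjusted 0.299) with an r of 0.47 (exact permutation p = 0.237), or -0.07 without them. A rise was called for 2.56% of the 39 genes there, and adjusted over both strains and platforms together Nqo1 passed (adjusted exact permutation p = 0.0444). The joint set takes in the OpenArray tests, where far more genes were called, and the unadjusted exact permutation p of 0.0154 is the same in both. Passing there adds nothing to the 7900HT values themselves.

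In Long-Evans, Nqo1 stood at 3.92, -0.52, -0.02, 0.56, 4.40, 4.55, -1.93 and 4.73 from 0.001 to 1000 µg/kg in the authors' deposited table. Nfe2l2 stood at 2.30, -0.11, -0.10, 0.21, 5.34, 5.81, -0.53 and 5.64 over the same doses in the authors' deposited table. Both genes are high at 0.001, 10, 50 and 1000 µg/kg and low at 100 µg/kg. Their rho was 0.36 and 0.31 (exact permutation p = 0.389 and 0.462, adjusted 0.690 for each), with an r of 0.21 and 0.49 (exact permutation p = 0.601 and 0.206), or 0.42 and 0.57 without the 2 farthest doses. In this strain 0% of the genes were called for a rise with dose in this exact permutation analysis, while 12.8% had an unadjusted p under 0.05 in either direction.

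The raw 7900HT table lists 4 rows each for 14 genes, Nqo1 and Nfe2l2 among them, and 2 rows for the other 25. In Long-Evans the 10 other complete genes with 4 rows had a median of 1.93, 2.85, 2.77 and 3.34 log2 units at 0.001, 10, 50 and 1000 µg/kg, where Nqo1 and Nfe2l2 were high. The genes with 2 rows had a median of -2.82, -2.23 and -2.13 at 10, 50 and 1000 µg/kg. Over the groups the r of Nqo1 with the median of the other genes with 4 rows was 0.81 (Han/Wistar) and 0.79 (Long-Evans), and that of Nfe2l2 was 0.77 and 0.80. With the median of the genes with 2 rows it was -0.62 and -0.43 for Nqo1 and -0.82 and -0.62 for Nfe2l2. These are descriptions over 19 and 15 groups that share a control, and what the row sets stand for was not tested. Centred on the median of its row set, the dose trend turned to a rho of -0.49 for Nfe2l2 in Han/Wistar and -0.55 for Nqo1 in Long-Evans, neither called. The median used for this centring includes Nqo1 and Nfe2l2 themselves, and a rise shared by the set is subtracted with it.

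**Figure D4:**
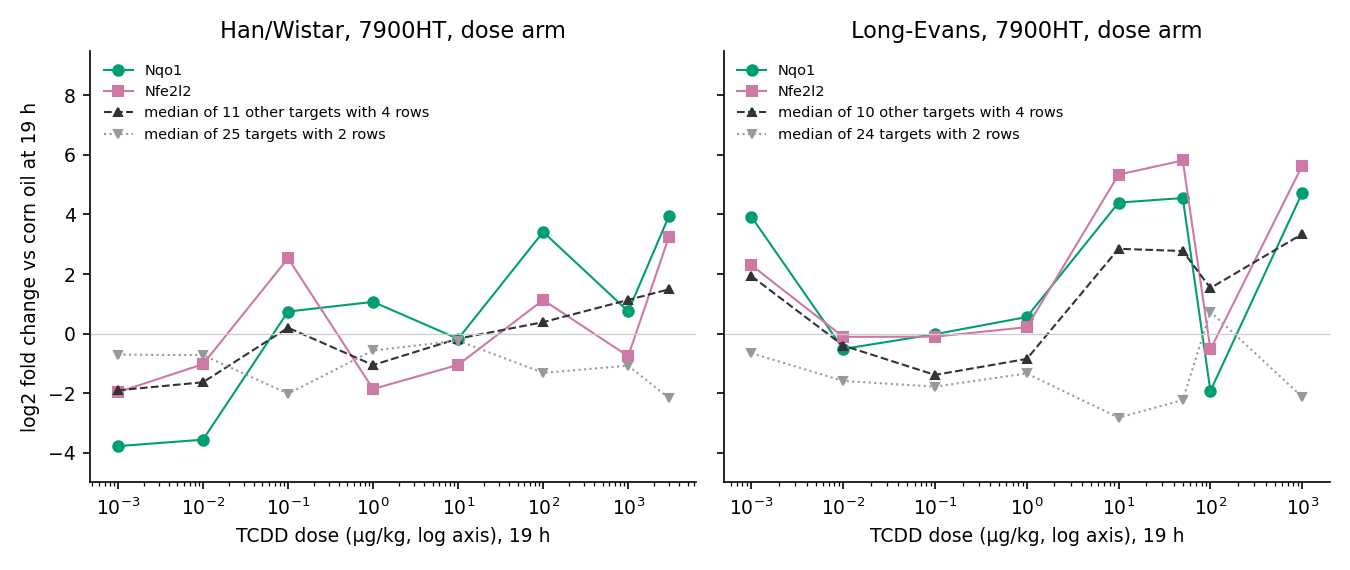
Log2 fold change on the 7900HT at 19 h against TCDD dose in µg/kg on a log axis, for Nqo1, Nfe2l2, the median of the other genes with 4 rows and the median of the genes with 2 rows, in Han/Wistar (left) and Long-Evans (right). In Long-Evans both genes and the median of their row set are high at 0.001, 10, 50 and 1000 µg/kg, where the median of the 2-row genes is below 0.

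In the 7900HT time course of Han/Wistar, Nqo1 stood at 1.22, 3.88, 5.57, 1.55, 3.41, 1.74, 2.97 and 0.60 from 1.5 to 384 h in the authors' deposited table, and the mean difference from corn oil was 3.66 (adjusted exact permutation p = 0.0364). A higher mean was called for 15.4% of the genes. The call was lost when only times with their own corn oil entered (3.03, adjusted exact permutation p = 0.109), and leaving out single groups gave 3.22 to 4.57, with 6 of 13 called. It was lost without TCDD at 3, 19 or 240 h and without corn oil at 19, 96, 240 or 384 h (adjusted exact permutation p = 0.0525 to 0.0788). In Long-Evans Nqo1 stood at -0.13, 0.91, 1.86, -1.93, 2.62 and 4.11 from 3 to 240 h in the authors' deposited table, a difference of 2.41 (adjusted exact permutation p = 0.222). There 0% of the genes were called higher in this exact permutation analysis, while 41% had an unadjusted p under 0.05 in either direction.

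Nfe2l2 stood at 4.91, 5.31, 4.67, 0.40, 1.13, 1.17, 0.98 and -1.37 from 1.5 to 384 h in Han/Wistar on the 7900HT in the authors' deposited table. The corn oil group at 1.5 h was nearly as high as the TCDD group of that time, with 0.59 between them. The mean difference was 2.39 (adjusted exact permutation p = 0.212), and without that corn oil group it was 3.53 (adjusted exact permutation p = 0.0492). In Long-Evans it stood at 0.73, 0.64, 1.13, -0.53, 1.51 and 2.13 from 3 to 240 h in the authors' deposited table, a difference of 1.65 (adjusted exact permutation p = 0.116). Against corn oil of the same time, Nqo1 was higher by 4.12, 5.77 and 3.25 at 96, 240 and 384 h in Han/Wistar and by 4.09 and 6.14 at 96 and 240 h in Long-Evans. With each group centred on the median of its row set, these differences of Nqo1 were smaller, at 1.09, 3.27 and 1.70 (Han/Wistar) and 1.22 and 3.30 (Long-Evans). As both genes are part of that median, a gene could be its own baseline, as Nqo1 was after TCDD at 384 h in Han/Wistar (centred value 0). For Nfe2l2 the uncentred differences were 3.49, 3.09 and -0.29 (Han/Wistar) and 2.57 and 3.22 (Long-Evans), and the centred ones 0.47, 0.59 and -1.84, and -0.30 and 0.38.

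**Figure D5:**
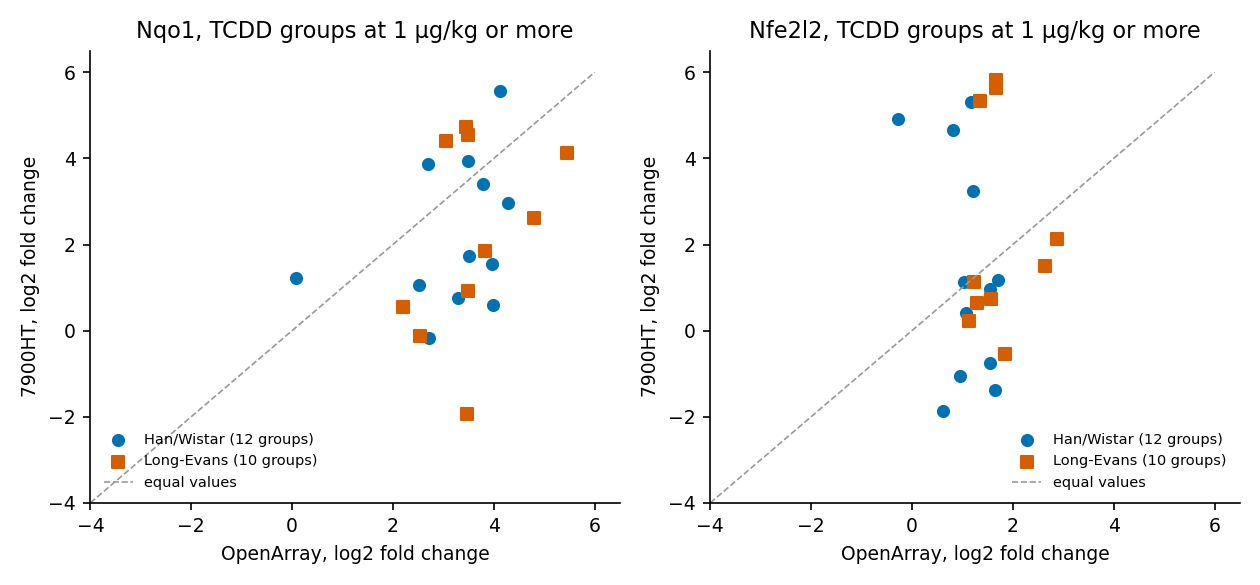
7900HT against OpenArray log2 fold change for Nqo1 (left) and Nfe2l2 (right), 1 point per TCDD group at 1 µg/kg or more, circles for Han/Wistar, squares for Long-Evans, with the line of equal values dashed. OpenArray values of Nfe2l2 stay below 3 log2 units while those of the 7900HT run from -1.86 to 5.81.

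Across TCDD groups at 1 µg/kg or more, no agreement in rank between the instruments was called for either gene. In Han/Wistar (12 groups) the rho between them was 0.31 for Nqo1 (permutation p = 0.333, adjusted 0.505) and -0.13 for Nfe2l2 (permutation p = 0.682, adjusted 0.864) over those groups. The r was 0.34 (permutation p = 0.291) and -0.39 (permutation p = 0.208), or 0.29 and -0.12 without the 2 groups farthest from the OpenArray median. In Long-Evans (10 groups) it was 0.30 for Nqo1 (permutation p = 0.407) and 0.31 for Nfe2l2 (permutation p = 0.386), both adjusted to 0.537. The r was 0.38 (permutation p = 0.282) and 0.0050 (permutation p = 0.991) there, or 0.25 and 0.24 without such groups. Over these groups the median rho of the 38 shared genes was 0.38 and 0.51, and agreement was called for 10.5% and 18.4% of them. With all 15 Han/Wistar TCDD groups Nqo1 had an r of 0.71, which was called (permutation p = 0.00289, adjusted 0.0157). Its rho there was 0.56 (permutation p = 0.0329, adjusted 0.0962), and the r of Nfe2l2 was -0.04. With all 13 Long-Evans TCDD groups the r was 0.36 for Nqo1 and 0.24 for Nfe2l2, neither called. The counts that follow again take groups at 1 µg/kg or more. Both instruments gave Nqo1 above 0 in 11 of 12 Han/Wistar groups and 8 of 10 Long-Evans groups, and Nfe2l2 in 7 of 12 and 9 of 10. As the corn oil group at 19 h is the 0 of every value in a strain, such counts are not independent observations.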

How the data were processed

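Per the labels' protocols, cDNA of liver RNA was amplified on an OpenArray or a 7900HT system. The values used are the log2 fold changes deposited by the authors, 1 for each gene in each group, relative to the strain's corn oil group at 19 h. The file headers do not state the log base, which was taken as 2. The sources used here do not say which genes the fold changes were normalised to, how animals were averaged or how empty wells were handled. R 2.12.2 was used, per the submitters' processing notes. The 304 columns of raw cycle values match no sample label and were not used. From these tables only gene names, assay names and row counts were read.

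The labels' strain, treatment, dose and time set the groups. Fits ran over all genes of a strain and platform, two-sided: Spearman's rho against log10 dose with all 40320 orders, the TCDD minus corn oil mean with all 1287 (Han/Wistar) or 84 (Long-Evans) splits, the strain tests with 5040 orders or 84 splits, and platform correlations with 100000 permutations. Benjamini-Hochberg adjustment and a threshold of 0.05 were used. P-values measure the spread between groups, not between animals. The procedures were tested on simulated data. Alternatives were centring on group mean, median or row set, Pearson's r, joint adjustment, corn oil taken as a dose, other choices of groups and leaving out single groups. Besides the 2 genes, the text names the 3 genes most like each by Pearson's r and measured members of the lists. Members and lists were chosen with earlier results of these data known. The software was Python 3.11.15 with scipy 1.17.1, numpy 2.4.6, pandas 2.3.3 and matplotlib 3.10.9.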

Additional observations from a re-analysis of the deposited data

How the results depend on the processing

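No paired analysis was possible because the deposited values are 1 per group and carry no replicate number. On the OpenArray, the dose and time calls of Nqo1 and of Nfe2l2 kept their direction under every alternative run. Centring on the group mean ended 3 calls of Nfe2l2, the time course in Han/Wistar (0.44), the dose trend in Long-Evans (0.12) and the time course in Long-Evans (0.78). Centring on the group median kept these 3 calls. With only the times that have their own corn oil, the Long-Evans time course gave 4.66 for Nqo1 and 2.44 for Nfe2l2 (adjusted exact permutation p = 0.129 for each), and without corn oil at 19 h it gave 4.06 and 1.89 (0.0921 for each). Both designs hold fewer groups. Leaving out single groups moved the dose rho on the OpenArray over 0.86 to 0.96 (Nqo1) and 0.96 to 1 (Nfe2l2) in Han/Wistar and 0.82 to 0.93 (both) in Long-Evans, and the time difference over 3.18 to 3.78 and 1.27 to 1.66 in Han/Wistar and 3.71 to 4.29 and 1.70 to 2.03 in Long-Evans, where 2 of 9 were called for each gene. On the 7900HT it moved the Han/Wistar time difference over 3.22 to 4.57 (Nqo1) and 1.86 to 3.53 (Nfe2l2). The strain difference in dose trend ranged over -0.54 to 0.14 for Nfe2l2 on the OpenArray, and on the 7900HT over -0.60 to 0.14 (Nqo1) and -0.086 to 0.60 (Nfe2l2). On the 7900HT joint adjustment, which takes in the OpenArray tests, brought the Han/Wistar dose trend of Nqo1 (0.83) past the threshold (adjusted exact permutation p = 0.0444). Row set centring there reversed the dose trends of Nfe2l2 in Han/Wistar (-0.49) and Nqo1 in Long-Evans (-0.55). The Han/Wistar time course of Nqo1 on the 7900HT was lost with only own corn oil times (3.03) and without corn oil at 19 h (3.92). Agreement of the platforms for Nfe2l2 in Han/Wistar turned from a rho of -0.13 to 0.05 with all TCDD groups. For Nqo1 in Han/Wistar the r went from 0.34 to 0.71 with all TCDD groups and was then called (adjusted permutation p = 0.0157). With 2-fold as the bound, the first dose was 1 and 100 µg/kg in Han/Wistar and 0.1 and 1 µg/kg in Long-Evans for Nqo1 and Nfe2l2. With median centring the likeness of Mawbp to Nqo1 was 0.73. The row set median includes both genes themselves. The cause of these changes was not tested. The 1 value per group, with no spread between animals, is a limit.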
